A study of Mus musculus with 4 samples.

Results

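The 8 aldehyde dehydrogenases *Aldh2*, *Aldh1b1*, *Aldh1a1*, *Aldh3a2*, *Aldh9a1*, *Aldh7a1*, *Aldh6a1* and *Aldh18a1*, together with *Adh5* and *Esd*, were followed in sorted mouse hematopoietic stem cells (HSCs). They are 10 of the 19354 genes listed and were picked by symbol as enzymes of aldehyde handling, by a rule that uses no measured value. Expression is given as CPM, the count of a gene scaled to a common library size, on the log2 scale unless stated. All 10 passed the filter of a mean of at least 1 CPM, as did 15895 genes in all. RNA came from HSCs sorted as LSK FLT3- CD48- CD150+ cells and pooled over 14 *Mx1-Cre*; *Id2+/+* mice or 15 *Mx1-Cre*; *Id2*Fl/Fl mice of 8 to 16 weeks of age. The mice had received polyinosinic:polycytidylic acid (pIpC) 2 weeks earlier, and the cells were collected in 2 separate experiments. Each genotype gave 2 RNA-Seq libraries, called *Id2+/+* and *Id2Δ/Δ* below. Both genotypes therefore carried *Mx1-Cre* and received pIpC. *Mx1-Cre* is switched on by interferon in many tissues, so deletion need not have been limited to HSCs. Since cells were pooled, p-values measure only the spread between these libraries, which may be technical.

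Aldehydes arise in every cell from metabolism, and the reactive ones, acetaldehyde and formaldehyde above all, can cross-link DNA. Most aldehyde dehydrogenases use NAD or NADP to oxidise an aldehyde to its acid by way of a cysteine in the active site. ADH5 oxidises the adduct of formaldehyde and glutathione, and ESD then splits the product to formate. HSCs are known to depend on ALDH2 and ADH5 together with Fanconi DNA repair, and bright ALDH activity is a common way to enrich for stem and progenitor cells.

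None of the 10 genes passed the test for a difference between *Id2Δ/Δ* and *Id2+/+* HSCs. Their adjusted p-values were 0.910 to 0.978 (limma with Benjamini-Hochberg adjustment over all 15895 genes). No other gene passed either, so the share called was 0%. The deleted gene *Id2*, with 93 and 98 reads in *Id2+/+* and 0 in either *Id2Δ/Δ* library, was also not called. The lack of a call therefore does not show that a gene was unchanged. The unadjusted p of each of the 10 was above 0.05, whereas it was under 0.05 for 742 of all genes, or 4.67%. In both *Id2Δ/Δ* libraries *Adh5*, *Esd* and *Aldh7a1* were above both *Id2+/+* libraries, as were 19.0% of all genes tested. *Aldh2* and *Aldh1b1* were below in both, as were 15.8% of all genes. With 3 of 10 above and 2 of 10 below, the counts lie near this background. The median log2 fold change was 0.04 over the 10 genes and 0.01 over all genes tested. Every 95% interval included no change, and the bounds of the 10 intervals reached from 0.554-fold to 1.79-fold. With 2 libraries against 2, an exact permutation test of a single gene cannot give a p below 0.333.

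**Figure D1:**
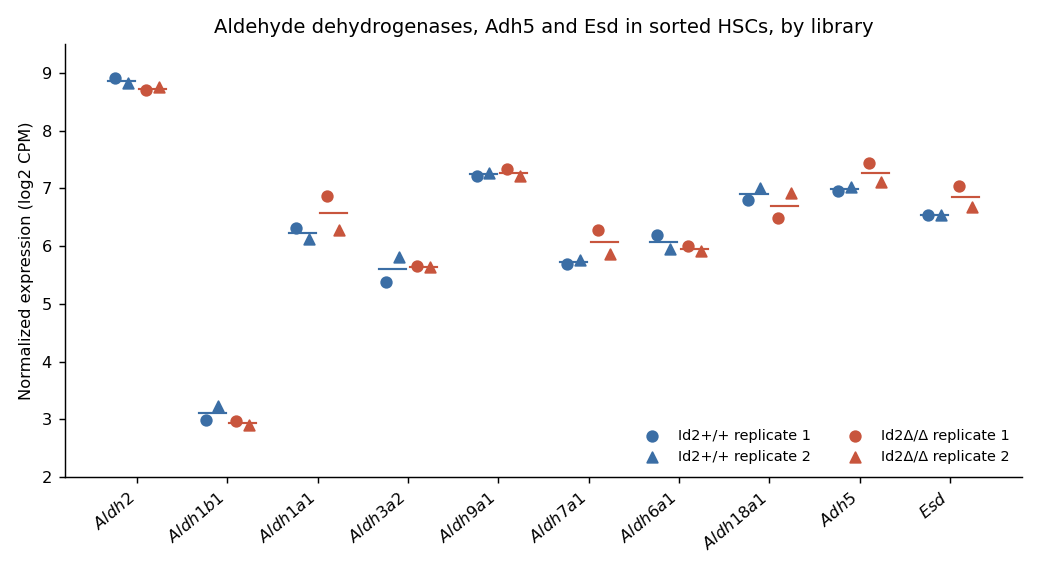
Normalized expression of the 10 genes (y axis, log2 CPM) in each *Id2+/+* (blue) and *Id2Δ/Δ* (red) library, with circles for replicate 1, triangles for replicate 2 and horizontal lines for the mean of the 2 libraries. *Aldh2* was near 8.8 and *Aldh1b1* near 3 in every library. For *Adh5*, *Esd*, *Aldh7a1*, *Aldh1a1* and *Aldh9a1* the *Id2Δ/Δ* replicate 1 library was the highest.

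Reads of *Id2* itself numbered 93 and 98 in *Id2+/+* replicates 1 and 2, and 0 in either *Id2Δ/Δ* library, which allows up to 0.169 and 0.160 CPM there. The depth was 14200000 and 15700000 reads in the *Id2+/+* and 17800000 and 18800000 reads in the *Id2Δ/Δ* libraries, by the recovered reads. The HSC markers were abundant. *Kit*, a receptor that the gate uses, was at 11.08 and 10.93 log2 CPM in *Id2+/+* and at 10.19 and 10.55 in *Id2Δ/Δ* libraries, and *Slamf1*, which encodes CD150, was at 5.78, 5.70, 6.08 and 5.92. The 6 HSC markers sum to 3081 to 3261 CPM in *Id2+/+* and 2163 to 2480 CPM in *Id2Δ/Δ* libraries, which do not overlap. *Kit* made up 2159 and 1948 CPM of this in *Id2+/+* and 1170 and 1499 CPM in *Id2Δ/Δ* libraries, and the other 5 sum to 1102 and 1133 CPM against 993 and 980 CPM. Estimates were negative for 4 of the 6 and positive for 2, and none was called (limma). Of the genes whose proteins the gate excluded, *Cd48* was at 1.40 to 3.04 log2 CPM and *Flt3* at 5.47 to 5.63. The 7 neutrophil markers sum to 141 and 51.9 CPM in *Id2+/+* replicates 1 and 2 and to 108 and 25.7 CPM in *Id2Δ/Δ* replicates 1 and 2. These sums differed more between the numbers than between the genotypes. Estimates were positive for 2 of the 7, *Mpo* and *Elane*, and negative for 5, and none was called (limma). Over the 4 libraries the listed markers sum to 24 to 36.7 CPM for erythroid cells (6 of 7 listed), 445 to 584 for megakaryocytes (5 of 5), 35.4 to 43.2 for macrophages (4 of 5), 33.6 to 51.0 for B cells (2 of 4), 1.38 to 3.40 for T cells (1 of 4) and 1.51 to 10.4 for stroma and endothelium (3 of 5). The part of these shifts in the values of the 10 genes was not tested. In bulk RNA, fewer cells of a type and less RNA per cell cannot be told apart.

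Read counts grow with transcript length, so levels were compared between genes as CPM per kilobase of the longest transcript. *Aldh2*, the mitochondrial enzyme that removes acetaldehyde, was the most abundant, at 115 CPM per kilobase over the 4 libraries (107 to 124), higher than 97.2% of the tested genes that have a length. *Aldh9a1* followed at 54.0 (52.2 to 57.0) and *Esd* at 52.8 (46.9 to 65.8), and their ranges overlap. *Adh5* was at 37.9 (33.3 to 46.3), *Aldh1a1* at 36.4 (29.5 to 49.5) and *Aldh18a1* at 31.9 (25.5 to 36.4), each overlapping its neighbour. *Aldh6a1* at 18.7, *Aldh3a2* at 16.0 and *Aldh7a1* at 14.6 formed a lower group with overlapping ranges. *Aldh1b1*, the mitochondrial relative of *Aldh2*, was lowest at 3.55 CPM per kilobase (3.24 to 4.10), below every other gene of the set in all 4 libraries. By this length the range of *Aldh2* was clear of that of every other gene of the set.

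The place of *Adh5* in this order depended on the transcript taken. Its longest listed transcript, of 3725 bases, retains an intron, and the longest coding one has 1604 bases. Per kilobase of coding transcript, a choice made after the values were seen, *Adh5* was at 87.9 (77.4 to 108) and came second, with a range that touched that of *Aldh2*. *Aldh6a1* moved from 18.7 to 19.1, and the other 8 genes kept their length. Among the 8 aldehyde dehydrogenases, *Aldh2* made up 42.4% and 40.3% of the summed CPM per kilobase of the longest transcript in *Id2+/+* and 36.3% and 39.6% in *Id2Δ/Δ* libraries. The share of *Aldh1a1* was 11.6% and 10.2% in *Id2+/+* and 16.7% and 11.7% in *Id2Δ/Δ* libraries. *Aldh9a1* held 17.9% to 19.3% in all 4.

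**Figure D2:**
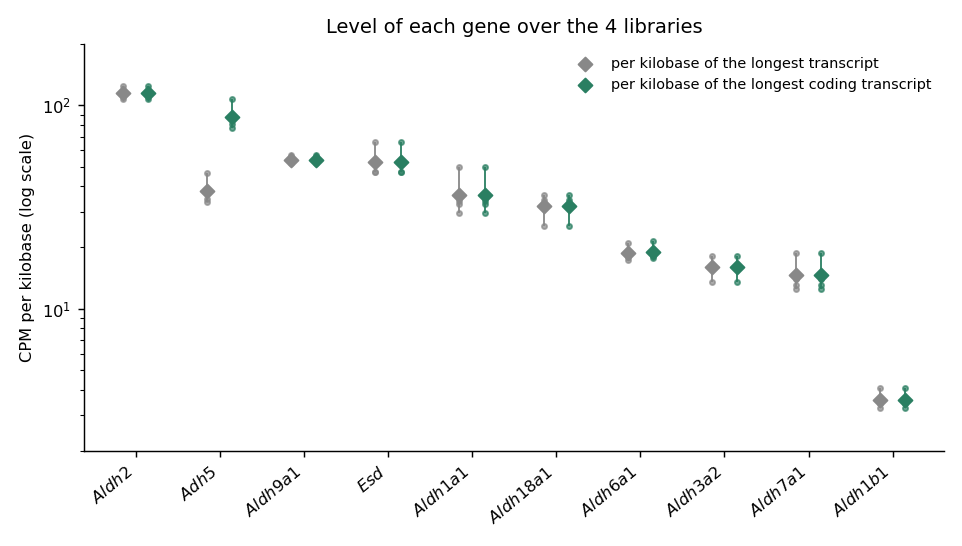
Level of each gene in CPM per kilobase (y axis, log scale), by the longest transcript (grey) and the longest coding transcript (green), with diamonds for the mean, small points for the 4 libraries and lines from the lowest to the highest. *Aldh2* lies at 115 and *Aldh1b1* at 3.55, and only *Adh5* shifts visibly between the lengths, from 37.9 to 87.9.

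The abundant and the scarce mitochondrial enzyme are close relatives, and the stretch of coding sequence around the active-site cysteine shows how close. The codon was searched with the PROSITE pattern for that cysteine in the reading frame of 1 GENCODE M21 transcript (GRCm38) for each of 7 genes, and 45 bases around it are given 5′ to 3′ with the cysteine codon in capitals. *Aldh2* and *Aldh1b1* share 41 of the 45 bases, *Aldh2* and *Aldh1a1* 29, and the least alike pairs 16. The pattern found no match in *Aldh18a1*, and *Aldh7a1* was not analysed here.
Aldh2: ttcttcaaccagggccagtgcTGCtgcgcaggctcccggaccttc
Aldh1b1: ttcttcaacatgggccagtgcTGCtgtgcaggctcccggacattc
Aldh1a1: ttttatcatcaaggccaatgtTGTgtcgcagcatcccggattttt
Aldh9a1: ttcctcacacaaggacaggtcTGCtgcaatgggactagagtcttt
Aldh3a2: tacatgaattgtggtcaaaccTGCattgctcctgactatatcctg
Aldh6a1: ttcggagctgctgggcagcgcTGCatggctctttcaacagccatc

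These stretches are exonic. That of *Aldh2* lies in exon 9 of 13 (chr5:121572781-121572825, minus strand), of *Aldh1b1* in exon 2 of 2 (chr4:45803403-45803447, plus strand), and of *Aldh1a1* in exon 12 of 16 (chr19:20630701-20630745, plus strand). That of *Aldh3a2* lies in exon 5 of 10 (chr11:61258795-61258839, minus strand) and of *Aldh6a1* in exon 8 of 12 (chr12:84436799-84436843, minus strand). The stretch of *Aldh9a1* is split between exons 6 and 7 of 11 (chr1:167357433-167357450 and chr1:167361403-167361429, plus strand). Coordinates follow the GRCm38 annotation GENCODE M21, by Ensembl identifier. The deposited values carry no coordinates, and the submitters' processing notes name mm9.

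Acetaldehyde clearance. *Aldh2* was at 8.91 and 8.82 log2 CPM in the *Id2+/+* libraries and at 8.70 and 8.75 in the *Id2Δ/Δ* libraries. Both *Id2Δ/Δ* values were lower, and the means were 8.87 ± 0.06 and 8.72 ± 0.04 (SD, n = 2 each). The log2 fold change was -0.14 (SE 0.10, 95% interval -0.38 to 0.09, limma adjusted p = 0.910), the narrowest interval of the 10. The paper names *Aldh2* as a target of the hypoxia factor HIF-1α that was lower in *Id2Δ/Δ* HSCs, from gene set enrichment of RNA-Seq. The estimate here has that direction but was not called, and a role of HIF-1α was not tested. A gene on the opposite strand, *Gm42879*, overlaps *Aldh2* and is scarce. *Aldh1b1* is the scarcest, with 115 and 150 reads in *Id2+/+* and 138 and 134 reads in *Id2Δ/Δ* libraries. Its values were 2.99 and 3.23 against 2.98 and 2.90 log2 CPM, so the groups only just failed to overlap. The log2 fold change of *Aldh1b1* was -0.17 (SE 0.29, 95% interval -0.85 to 0.51, adjusted p = 0.942). Without *Id2+/+* replicate 1 it was -0.30, and without *Id2+/+* replicate 2 it was -0.05.

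Formaldehyde clearance. *Adh5*, on chromosome 3 (138443093 to 138455499, plus strand), encodes the glutathione-dependent formaldehyde dehydrogenase. It was at 6.96 and 7.02 log2 CPM in *Id2+/+* and at 7.43 and 7.11 in *Id2Δ/Δ* libraries. The groups did not overlap, but the *Id2Δ/Δ* libraries lay 0.32 apart, more than the genotype difference of 0.28 (SE 0.14, 95% interval -0.05 to 0.62, limma adjusted p = 0.910). *Esd*, on chromosome 14 (74732297 to 74750765, plus strand), encodes the hydrolase for the next step. It was at 6.55 and 6.54 in *Id2+/+* and at 7.03 and 6.68 log2 CPM in *Id2Δ/Δ* libraries. Again no value overlapped, and the difference of 0.31 (SE 0.15, 95% interval -0.04 to 0.67, adjusted p = 0.910) was below the 0.35 between the *Id2Δ/Δ* libraries. Both enzymes were highest in the *Id2Δ/Δ* replicate 1 library, and without it the differences were 0.12 for *Adh5* and 0.14 for *Esd*. Without the other *Id2Δ/Δ* library they were 0.44 and 0.49.

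*Adh5* and *Esd* kept nearly the same ratio in every library. *Aldh7a1*, of lysine breakdown, ran nearly parallel to both, at 5.69 and 5.76 log2 CPM in *Id2+/+* and 6.28 and 5.86 in *Id2Δ/Δ* libraries. The near-constant ratio is therefore not particular to this pair, and how many other pairs show it was not counted. Within a library the log2 CPM of *Adh5* minus that of *Esd* was 0.41 and 0.47 in *Id2+/+* and 0.40 and 0.43 in *Id2Δ/Δ* libraries. *Adh5* minus *Aldh2*, a comparison chosen after the values were seen, was -1.95 and -1.81 in *Id2+/+* and -1.27 and -1.64 in *Id2Δ/Δ* libraries. The values of *Adh5* minus *Aldh2* did not overlap between genotypes. That had to follow, since *Adh5* was above and *Aldh2* below in both *Id2Δ/Δ* libraries, so it adds no separate result. The authors' quantile normalization acts on each level separately, so such differences depend on it too. *Esd* has 9 processed pseudogenes of over 90% identity to it in GENCODE M21. None is listed in the deposited values, and how reads shared with them were counted is not given in the sources used here.

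The promoters of *Adh5* and *Esd*, picked after the values were seen, are shown. The ACGTG form of the hypoxia response core that HIF-1 binds is in capitals, and a role of HIF-1 in their levels was not tested. The study concerns HIF-1α, and this form was searched on both strands, so it reads CACGT on the other strand and CACGTG counts on both. The windows are those of RefSeq on GRCm38.p6, from 250 bases before to 50 bases after the gene start, on the strand of the gene. The window shown for *Adh5* is chr3:138442843-138443142 (plus strand), with the core at position -38 relative to the start. Another window of *Adh5*, chr3:138436950-138437249 (plus strand), does not hold this form. The window of *Esd* is chr14:74732047-74732346 (plus strand), with the core at position -28.
Adh5: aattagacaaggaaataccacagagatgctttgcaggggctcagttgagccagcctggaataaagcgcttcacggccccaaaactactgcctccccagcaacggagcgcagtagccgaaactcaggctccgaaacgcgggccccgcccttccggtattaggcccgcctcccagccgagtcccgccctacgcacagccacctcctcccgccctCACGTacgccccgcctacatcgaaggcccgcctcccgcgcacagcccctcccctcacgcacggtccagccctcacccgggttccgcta
Esd: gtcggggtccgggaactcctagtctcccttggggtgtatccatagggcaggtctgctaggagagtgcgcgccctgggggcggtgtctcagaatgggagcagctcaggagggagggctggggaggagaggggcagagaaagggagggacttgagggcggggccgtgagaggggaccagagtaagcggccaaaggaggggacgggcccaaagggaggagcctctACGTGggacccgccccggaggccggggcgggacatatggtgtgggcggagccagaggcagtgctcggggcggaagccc

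Of the 10 genes, 8 had promoter windows, 11 in all, and *Aldh2* and *Aldh7a1* were not among them. The promoter of *Aldh2*, which the paper names as a HIF-1α target, was therefore not searched. ACGTG was in 5 of the 11 windows, or 45.5%, 1 each of *Adh5*, *Esd*, *Aldh9a1*, *Aldh3a2* and *Aldh18a1*. Among all 32851 windows of this length 19.6% hold it, and no correction for base composition was made. The other form of the core, GCGTG on either strand, is not in capitals. It was in 5 of the 11 windows, 1 each of *Adh5*, *Aldh9a1*, *Aldh3a2*, *Aldh6a1* and *Aldh18a1*, and in 32.4% of all windows. A match is a run of letters, not a bound site.

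Retinal oxidation. *Aldh1a1*, on chromosome 19, oxidises retinal to retinoic acid. It was at 6.32 and 6.12 log2 CPM in *Id2+/+* and at 6.87 and 6.27 in *Id2Δ/Δ* libraries. The groups overlapped, since the *Id2Δ/Δ* replicate 2 library was below the higher *Id2+/+* library. The log2 fold change was 0.35 (SE 0.21, 95% interval -0.14 to 0.84, limma adjusted p = 0.910), the highest estimate of the 10 with one of the wider intervals. Without *Id2Δ/Δ* replicate 1 it was 0.05, and without *Id2Δ/Δ* replicate 2 it was 0.65.

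Fatty aldehydes and aminoaldehydes. *Aldh3a2*, the enzyme of long-chain fatty aldehydes that is also needed to break down sphingosine 1-phosphate, was at 5.38 and 5.81 log2 CPM in *Id2+/+* and at 5.65 and 5.63 in *Id2Δ/Δ* libraries. Both *Id2Δ/Δ* values lay between those of *Id2+/+*, and the difference was 0.04 (SE 0.19, 95% interval -0.40 to 0.48, limma adjusted p = 0.978). *Aldh9a1*, which makes the precursor of carnitine and oxidises aminoaldehydes from polyamines, had the narrowest range over the 4 libraries of the 10 genes. Its values were 7.22 and 7.26 against 7.34 and 7.21 log2 CPM, with a difference of 0.03 (SE 0.12, 95% interval -0.24 to 0.31, adjusted p = 0.970).

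Amino acid metabolism. *Aldh7a1*, which acts in lysine breakdown, was at 5.69 and 5.76 log2 CPM in *Id2+/+* and at 6.28 and 5.86 in *Id2Δ/Δ* libraries. Both *Id2Δ/Δ* values were higher, and the difference of 0.34 (SE 0.18, 95% interval -0.08 to 0.76, limma adjusted p = 0.910) was below the 0.42 between the *Id2Δ/Δ* libraries. Without *Id2Δ/Δ* replicate 1 it was 0.13, and without *Id2Δ/Δ* replicate 2 it was 0.56. *Aldh7a1* overlaps the abundant gene *Phax* on the opposite strand, and whether the counting used strand is not given in the sources used here. *Phax* was at 5.62 and 5.41 log2 CPM in *Id2+/+* and 5.78 and 5.71 in *Id2Δ/Δ* libraries, also higher in both. The part of *Phax* reads in the *Aldh7a1* values was not tested. *Aldh6a1*, which acts in valine breakdown, was at 6.20 and 5.96 against 6.0 and 5.91 log2 CPM, a difference of -0.12 (SE 0.15, adjusted p = 0.930), with overlapping groups. Without *Id2+/+* replicate 1 it was -0.0019, and without *Id2+/+* replicate 2 it was -0.24. It overlaps *Bbof1* on the opposite strand. *Aldh18a1* makes the precursor of proline and is unusual in reducing rather than oxidising. It was at 6.80 and 7.0 against 6.49 and 6.91 log2 CPM, a difference of -0.20 (SE 0.17, adjusted p = 0.910), and the groups overlapped. Without *Id2Δ/Δ* replicate 1 it was 0.0080, and without *Id2Δ/Δ* replicate 2 it was -0.41.

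Matched by number, which is arbitrary here, the libraries gave differences of the same sign in 8 of the 10 genes. Taken alone, the replicate 1 libraries gave the larger absolute difference in 9 of 10, the exception being *Aldh1b1*, which differed by -0.01 in the first and -0.34 in the second. For *Aldh7a1* the differences were 0.59 and 0.10, for *Aldh1a1* 0.55 and 0.15, for *Esd* 0.49 and 0.14 and for *Adh5* 0.47 and 0.09. *Aldh3a2* (0.27 and -0.18) and *Aldh9a1* (0.12 and -0.05) had opposite signs. Which library came from which experiment is not stated in the labels. How many of all genes tested show the same sign, or a larger difference in the replicate 1 libraries, was not counted. These counts are therefore not read as a trait of the 10 genes. The median gap between the 2 libraries of a genotype was 0.14 in *Id2+/+* and 0.22 in *Id2Δ/Δ* over the 10 genes, and 0.19 and 0.29 over all genes tested.

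**Figure D3:**
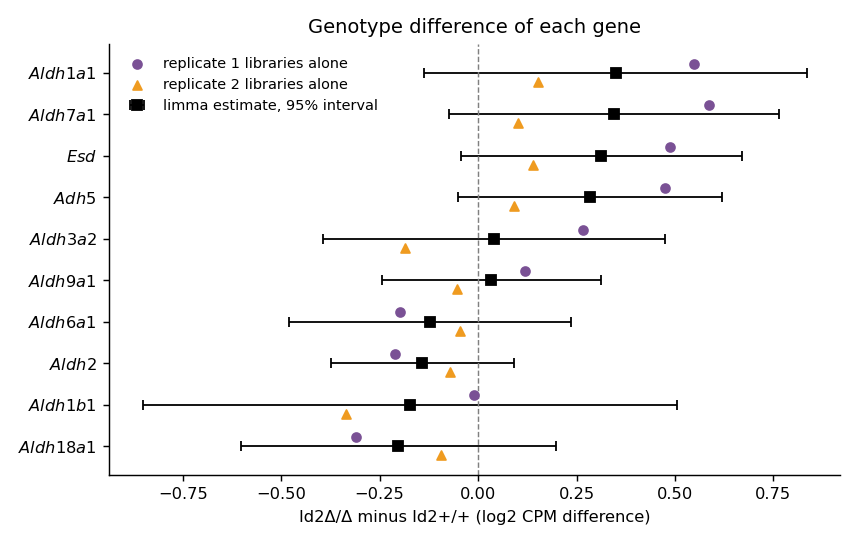
Difference between *Id2Δ/Δ* and *Id2+/+* (x axis, log2 CPM) for each gene (y axis). Black squares with bars are the limma estimate and its 95% interval, purple circles the replicate 1 libraries alone and orange triangles the replicate 2 libraries alone. Every interval crosses 0, and the circles lie farther from 0 than the triangles for all genes but *Aldh1b1*. Matching libraries by number is arbitrary, and how often this holds over all genes tested was not counted.

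The genes around these enzymes were read from 11 lists, chosen by function, with 110 tested genes. None was called in either direction. Unadjusted p-values were under 0.05 for 6 of them, or 5.45%, against 4.67% of all genes. Both *Id2Δ/Δ* values were above for 11.8% and below for 11.8% of the 110, against 19.0% and 15.8% of all genes tested. Leaving out 1 library changed the sign of the median in 4 of the 11 lists, those of folate, glutathione, Fanconi and branched-chain genes.

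Of 13 further aldehyde dehydrogenases listed, 7 have a row and 5 were tested, with a median log2 fold change of -0.38. That median was -0.19 without *Id2Δ/Δ* replicate 1, -0.23 without *Id2+/+* replicate 1 and -0.12 at a mean of at least 10 CPM. *Aldh1l1*, the folate enzyme that oxidises 10-formyltetrahydrofolate, was at 5.96 and 5.75 in *Id2+/+* and 5.55 and 5.40 log2 CPM in *Id2Δ/Δ* libraries, which do not overlap (difference -0.38, limma adjusted p = 0.910). *Aldh1a3*, a retinal dehydrogenase, was at 0.52 and 1.30 against -2.36 and -0.88 log2 CPM, a low level in all 4 libraries (difference -2.53, adjusted p = 0.910). *Aldh16a1* (difference -0.12), *Aldh4a1* (0.10) and *Aldh5a1* (-0.38) overlapped between genotypes.

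The list of other alcohol dehydrogenase and carbonyl reduction genes had 10 tested genes, all of them *Akr* or *Cbr* genes. Their median was 0.15, and 9 of them had a positive estimate. No alcohol dehydrogenase of this list was tested, since *Adh1*, the only one with a row, fell below the filter. The abundant *Akr1a1*, which reduces aldehydes to alcohols, was at 8.04 and 7.91 against 8.29 and 8.12 log2 CPM (difference 0.23, limma adjusted p = 0.910). *Akr1b3* differed by 0.08 and *Akr1b10* by 0.06. *Cbr3*, a carbonyl reductase, had the smallest unadjusted p of the list among higher genes, at 0.46 and 1.57 against 2.29 and 2.13 log2 CPM. *Akr1c12* differed by -0.70 with overlapping groups.

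Of the 19 Fanconi genes tested, 12 had a positive and 7 a negative estimate, with a median of 0.02. *Brca2* (difference 0.24) and *Fanci* (-0.15) were among the most abundant. *Fancd2* was at 4.32 and 4.23 against 4.63 and 4.48 log2 CPM, and *Ercc4*, a nuclease of cross-link repair, at 5.48 and 5.51 against 5.0 and 5.36. The 4 glutathione supply genes had a median of 0.04, with *Gclm* at -0.06, *Gclc* at -0.08 and *Gsr* at 0.20. The 11 folate genes had a median of 0.02, with *Tyms* at 0.10, *Mthfd1* at 0.02, *Shmt2* at 0.14, *Mthfd2* at 0.44 and *Mtr* at -0.36.

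The lists for the substrates of single enzymes were likewise without a called gene. The median was 0.08 over 20 genes of branched-chain catabolism (*Hibadh* -0.01, *Hsd17b10* 0.11, *Dld* -0.07, *Hibch* 0.30, *Mccc1* -0.36) and 0.09 over 5 genes of proline and ornithine (*Oat* 0.02, *Pycrl* 0.17, *Pycr1* -0.31). It was 0.06 over the 10 tested genes of the carnitine and polyamine list (*Oaz1* 0.08, *Srm* 0.12, *Azin1* 0.16, *Amd1* -0.20). All of these are polyamine genes, and no carnitine gene of that list was tested. The median was -0.35 over the 2 tested of lysine breakdown (*Gcdh* -0.01, *Dhtkd1* -0.68). Over 9 genes of sphingosine 1-phosphate it was -0.28 (*Asah1* 0.01, *Sgpl1* -0.05, *Sgpp1* -0.40, *Asah2* 0.11), and -0.11 without *Id2Δ/Δ* replicate 1, -0.07 at a mean of at least 10 CPM and -0.02 in the replicate 2 libraries alone. In the retinoid list, with 15 tested genes, the median was 0.12. There *Rara*, a retinoic acid receptor, was at 2.99 and 3.03 against 1.71 and 2.20 log2 CPM (difference -1.06, limma adjusted p = 0.910). *Rdh10*, which makes the retinal that *Aldh1a1* uses, was at 3.60 and 4.03 against 4.28 and 4.50 log2 CPM (difference 0.58, adjusted p = 0.910). *Rxrb* differed by 0.11 and *Retsat* by 0.16.

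**Figure D4:**
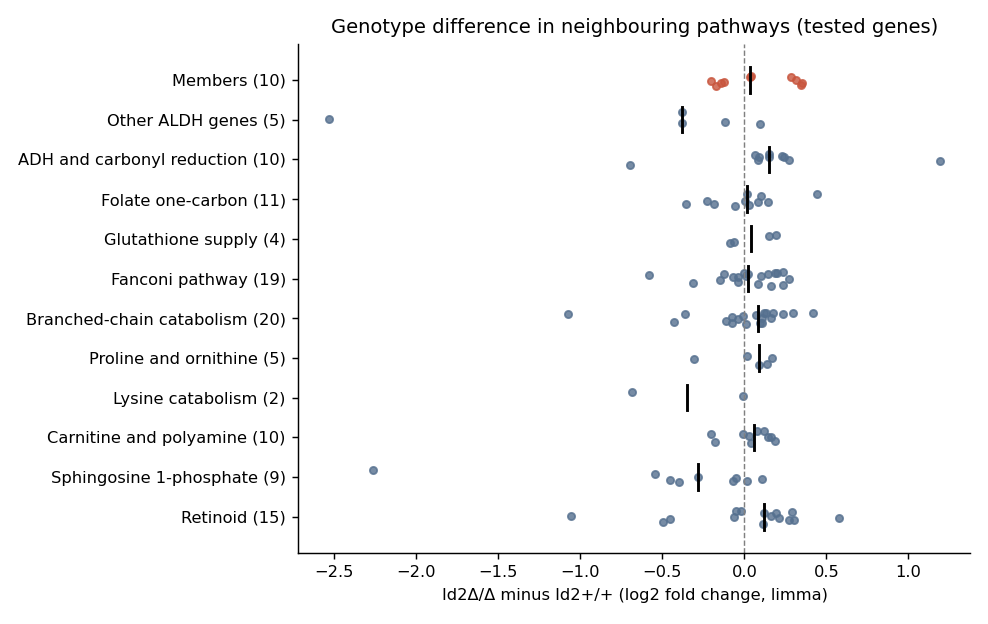
Log2 fold change between *Id2Δ/Δ* and *Id2+/+* (x axis, limma) of the tested genes of each list (y axis, number of genes in brackets), with points for genes and black bars for the median. The 10 genes (red) have a median of 0.04. The medians of the lists run from -0.38 for the other aldehyde dehydrogenases to 0.15 for the alcohol dehydrogenase and carbonyl reduction list. The tested genes of the latter are all *Akr* or *Cbr* genes, and those of the carnitine and polyamine list are all polyamine genes.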

How the data were processed

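RNA-Seq was done on 4 libraries, 2 *Id2+/+* and 2 *Id2Δ/Δ*. The authors deposited log2 CPM values for 19354 genes, quantile normalized across libraries, as read from the values. The submitters' processing notes name CASAVA 1.8.4, Trimmomatic 0.30, TopHat2 2.0.8, RSEM and STAR, and the builds mm9 and NCBIM37, without their roles. Reads were recovered from the ranks of distinct values below 32 CPM (62.1% of values), which gave the depths, and higher values were not turned back into reads. At these depths 3 reads, the limit that a count of 0 allows, equal 0.160 to 0.211 CPM, for counting error only.

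Genotype was the single term of a linear model fitted to the deposited log2 values in limma 3.58.1 (R 4.3.3, lmFit and eBayes with trend). The 15895 genes averaging 1 CPM or more entered it. P-values are two-sided and Benjamini-Hochberg adjusted, with a call at under 0.05. A pseudocount of 0.1 or 1, another scaling, other filters, no trend, a replicate block, a length correction and leaving out each library were tried. Transcript lengths and positions came from GENCODE M21 (99.7% of identifiers matched), and copies were searched with blastn 2.17.0 at 90% identity over 200 bases. Named genes are the 10 enzymes, *Id2*, the tested genes among the other aldehyde dehydrogenases, for each list the 3 most abundant and the smallest p in each direction, and *Kit*, *Slamf1*, *Cd48* and *Flt3*. Some genes that this rule picks are not reported here. The symbol rule uses no measured value, but it and the lists were chosen with earlier results of these data known. No column was left unused.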

Additional observations from a re-analysis of the deposited data

How the results depend on the processing

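Of 129 refitted fold changes of the 10 genes, 126 kept their direction and none was called, with adjusted p-values of at least 0.266. The 3 reversals each came on leaving out 1 library: *Aldh3a2* was at -0.18 without *Id2+/+* replicate 1 (range on leaving out each library -0.18 to 0.26), and without *Id2Δ/Δ* replicate 1 *Aldh9a1* was at -0.031 (-0.031 to 0.097) and *Aldh18a1* at 0.0080 (-0.41 to 0.0080). The count of genes of the 10 whose groups did not overlap was 5, and 7 to 8 on leaving out a library, where 1 sample stands against 2 and overlap is less likely. Where 1 sample was left in a group, it was assumed to vary like the other group. The number of all genes called was 0, and 1 with the replicate block, with or without a length correction, namely *C130089K02Rik*, named after its values were seen. None of the 10 genes or of the list genes was called there. Deviations of same-numbered libraries from their group means correlate at 0.0592 over the tested genes, and at 0.139 over those above 32 CPM, and the labels do not tie numbers to experiments, so the block is not taken as a pairing. Requiring a mean of 10 CPM left out *Aldh1b1*. Of 165 list medians, 28 moved by more than the spread between libraries. The cause of the reversals was not tested. Depth bears most on *Aldh1b1*, the scarcest of the 10, with 115 to 150 reads a library.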
